A study of Arabidopsis thaliana with 4 samples.

Results

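Calmodulin-like proteins are plant calcium sensors, and 43 Arabidopsis loci that encode calmodulin-like EF-hand proteins were followed here by locus identifier in seedlings that overexpress RECA1. The array annotation paired 31 of these 43 loci with a probe set of their own, 1 probe set each, out of 22746 probe sets on the array. Of the 31, 17 were bright enough to be tested and 14 were not. The remaining 12 loci were paired with no probe set in the table used and are not analysed here. They are AT1G05990, TCH3 (AT2G41100), MSS3 (AT2G43290), AGD11 (AT3G07490), CML11 (AT3G22930), AT3G29000, CAM9 (AT3G51920), UNE14 (AT4G12860), CAM8 (AT4G14640), TCH2 (AT5G37770), and the centrin loci AT3G50360 and AT4G37010.

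Transcripts were measured on 4 Affymetrix arrays, each hybridised with RNA of whole seedlings 2 weeks old. The transgenic plants, here RECA1-OE, were T3 transgenic seedlings that overexpress RECA1 (AT1G79050), which encodes a plant protein of the RecA recombinase family, in the Col-0 ecotype (n = 2). The controls were wild-type Col-0 seedlings (n = 2). Both groups were grown on plates under long days and received no treatment. The promoter of the transgene and the number of transgenic lines are not given in the sources used here. No probe set was paired with RECA1 itself, so the labels were not checked against the transgene. The samples are called biological replicates, but nothing says whether they were grown or harvested apart, so the p-values measure only the spread between these arrays.

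As background, a rise in cytosolic calcium follows touch, wounding, cold, salt and the recognition of microbes. Calmodulin-like proteins bind that calcium through EF-hand loops, change shape, and pass the signal on to the enzymes, channels and transcription factors they contact. Many of their genes are known to respond at the transcript level to stress or to hormones. In whole seedlings, fewer cells that express a gene and less RNA per cell cannot be told apart.

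Among the 17 tested genes, 9 rose in RECA1-OE, 1 fell and 7 did not pass. A gene is called here where the limma p-value, adjusted over all 13647 tested probe sets, was under 0.05. Over those probe sets 19.9% were called, 9.94% higher and 9.97% lower, against 58.8% of the 17 genes called, 52.9% higher and 5.88% lower. Of the 9 rises, 6 were at least 2-fold, and no fall was. Over all tested probe sets 5.36% were called and at least 2-fold higher, and 2.62% called and at least 2-fold lower. The rises ran between 1.60-fold and 5.08-fold. The median log2 change of the 17 genes was 0.77, while that of all tested probe sets was -0.036. These are descriptions, since the genes were chosen with earlier results of these data known. A probe set was tested where its mean log2 signal over the 4 arrays exceeded a limit near 6.82. The Col-0 mean of each of the 9 genes that rose was at least 6.99, so none of them was tested only through its RECA1-OE level.

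**Figure D1:**
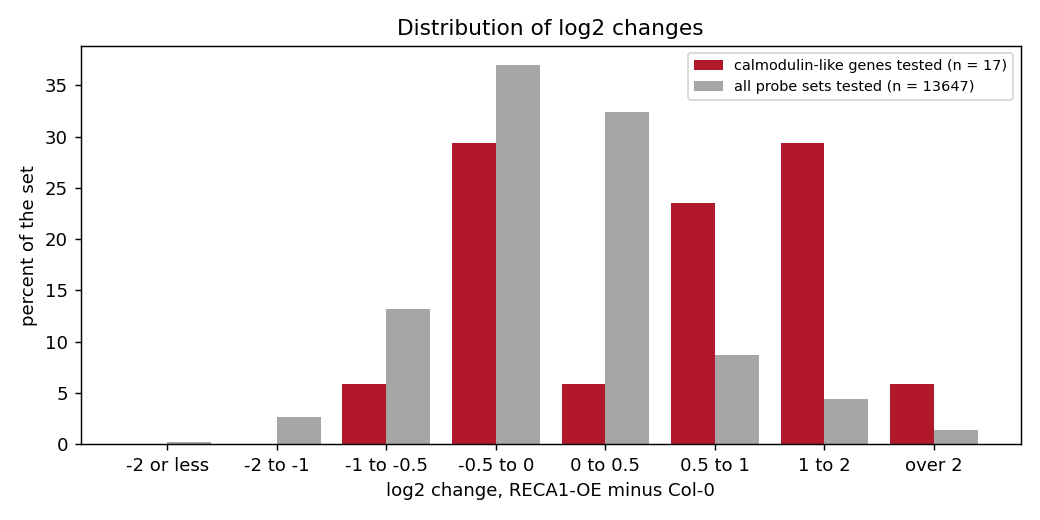
Percent of genes or probe sets (vertical axis) in each range of log2 change, RECA1-OE minus Col-0 (horizontal axis), for the 17 tested calmodulin-like genes (red) and all 13647 tested probe sets (grey). Of the calmodulin-like genes 29.4% lay between 1 and 2, where 4.38% of all probe sets lay. None lay at -1 or less, where few of all probe sets lay either (2.62% between -2 and -1, 0.227% at -2 or less).

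In each of the 9 rises both RECA1-OE arrays stood above both Col-0 arrays. That was so for 10 of the 17 tested genes, with AT3G03000 as the gene that did not pass, and in 2 of the 17 both RECA1-OE arrays were the lower pair. Over all tested probe sets the groups did not overlap in 65.0%, with RECA1-OE higher in 29.9% and lower in 35.1%. Among the 17 genes the groups did not overlap in 70.6%, with RECA1-OE higher in 58.8% and lower in 11.8%. Set against each gene's own mean over the 4 arrays, the median calmodulin-like gene stood at 0.50 and 0.28 on the RECA1-OE arrays and at -0.26 and -0.42 on the Col-0 arrays (log2).

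**Figure D2:**
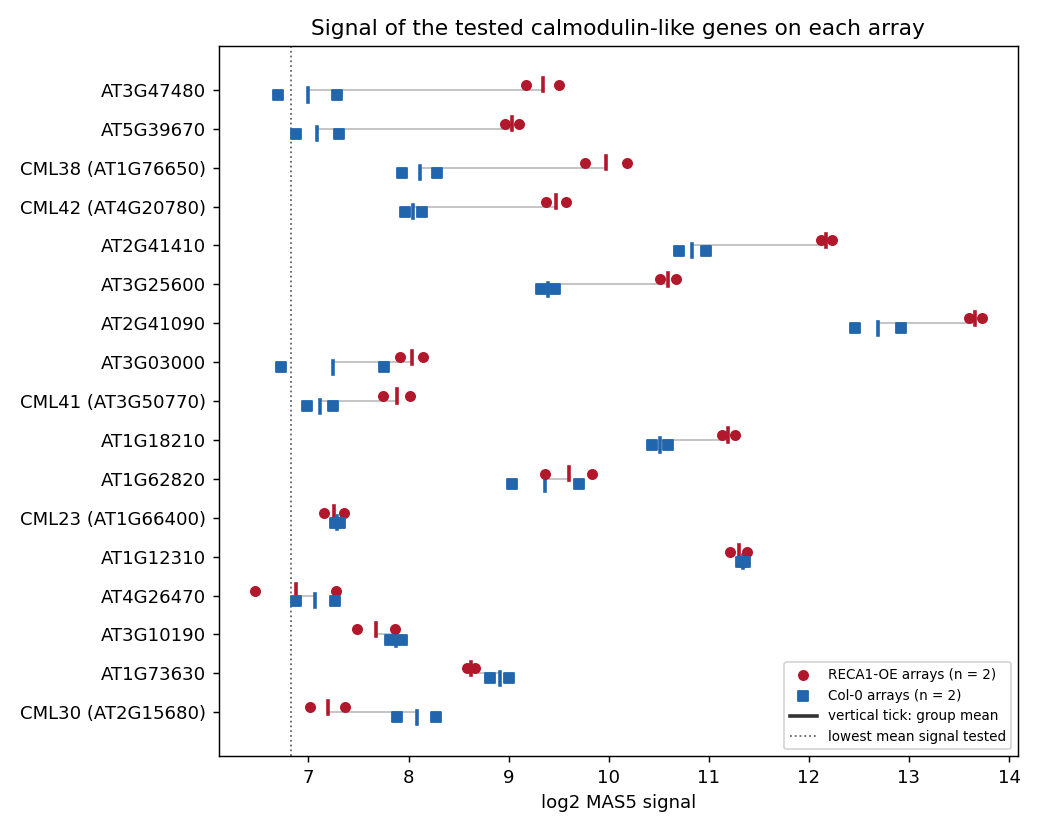
Log2 MAS5 signal (horizontal axis) of the 17 tested calmodulin-like genes on each RECA1-OE array (red circles) and each Col-0 array (blue squares), ordered by log2 change, with group means as vertical ticks. In 10 genes both red points lie to the right of both blue points, from AT3G47480 at the top down to AT1G18210.

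The steepest rise of the 17 tested genes was that of AT3G47480 (probe set 252417_at). Its log2 signal was 9.50 and 9.18 on the RECA1-OE arrays, against 7.29 and 6.70 on the Col-0 arrays. The groups were thus well apart, although the Col-0 arrays differed from each other by more than the RECA1-OE arrays did. The change was 2.34 ± 0.24 on the log2 scale (SE), or 5.08-fold (adjusted p = 0.0017 by limma). Only 122 of the 13647 probe sets tested had a larger log2 change.

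AT5G39670 (probe set 249417_at) had a log2 signal of 8.97 and 9.10 in RECA1-OE, against 7.30 and 6.88 in Col-0. Both RECA1-OE values were high and close together, and the groups did not overlap. It rose by 1.95 ± 0.20 (SE), or 3.85-fold (adjusted p = 0.0017 by limma). The tables used here give no symbol for this locus or for AT3G47480.

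CML38 (AT1G76650, probe set 259879_at) encodes a calcium sensor known from wounding and low oxygen, where it joins cytoplasmic granules of messenger RNA and binds the RNA-silencing protein SGS3. Its log2 signal was 9.76 and 10.18 in RECA1-OE, against 7.93 and 8.29 in Col-0. The gap between the groups was several times the gap within either. The rise was 1.86 ± 0.21 (SE), or 3.63-fold (adjusted p = 0.0020 by limma). CML39 (AT1G76640), a sensor of early seedling growth, is the gene next to CML38 on the chromosome. It had log2 signals of 3.22 and 2.45 in RECA1-OE, against 3.88 and 1.68 in Col-0, was too dim to be tested, and its groups overlapped.

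CML37 (AT5G42380, probe set 249197_at) is a sensor that takes part in jasmonate-dependent defence against herbivores and in drought responses. It was measured at log2 signals of 5.46 and 5.20 in RECA1-OE, against 0 and 0.84 in Col-0, where the 0 is a value set to the floor of a linear signal of 1. Both RECA1-OE arrays were higher, but all 4 values lay in the dim range. The probe set was left out of the main test, and no fold is given against a value at the floor. When dim probe sets were kept, CML37 was called higher (adjusted p = 0.023 by limma).

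CML42 (AT4G20780, probe set 254487_at), a sensor of trichome branching and a restraint on herbivore defence, had log2 signals of 9.58 and 9.37 in RECA1-OE, against 7.97 and 8.13 in Col-0. The 2 arrays of each group were close together, and the groups were far apart. It rose by 1.43 ± 0.17 (SE), or 2.69-fold (adjusted p = 0.0024 by limma).

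CML41 (AT3G50770, probe set 252136_at) acts at plasmodesmata, the channels between plant cells, which it helps to close when bacterial flagellin is sensed. Its log2 signal was 8.02 and 7.75 in RECA1-OE, against 6.98 and 7.24 in Col-0. It rose by 0.77 ± 0.21 (SE), or 1.71-fold (adjusted p = 0.043 by limma). The call was lost under 5 of 10 alternatives. Among them were no filter on dim probe sets (adjusted p = 0.097 by limma) and a replicate block (adjusted p = 0.067 by limma). The others left out 1 array each. CML43 (AT5G44460), which is linked to the hypersensitive cell death response, was too dim to be tested. It had log2 signals of 6.39 and 5.87 in RECA1-OE, against 6.64 and 6.31 in Col-0, and the groups overlapped.

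Of the remaining rises, AT2G41410 (probe set 266371_at) had log2 signals of 12.12 and 12.23 in RECA1-OE, against 10.70 and 10.97 in Col-0. It rose by 1.34 ± 0.15 (SE), or 2.53-fold (adjusted p = 0.0023 by limma). AT3G25600 (probe set 256755_at) had 10.52 and 10.67 in RECA1-OE, against 9.46 and 9.32 in Col-0, a rise of 1.20 ± 0.15 (SE), or 2.30-fold (adjusted p = 0.0031 by limma). Both genes were well separated, and neither has a symbol in the tables used.

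AT2G41090 (probe set 267076_at), the gene beside TCH3, had log2 signals of 13.73 and 13.60 in RECA1-OE, against 12.92 and 12.46 in Col-0. It rose by 0.97 ± 0.18 (SE), or 1.96-fold (adjusted p = 0.011 by limma), and the rise was 2.30-fold with Col-0 replicate 1 left out, or 1.67-fold with replicate 2 left out. AT1G18210 (probe set 256129_at) had 11.26 and 11.13 in RECA1-OE, against 10.59 and 10.43 in Col-0. Its rise of 0.68 ± 0.15 (SE), or 1.60-fold, was the smallest of the 9 (adjusted p = 0.020 by limma). The lower RECA1-OE array stood above the higher Col-0 array, as in 29.9% of all tested probe sets. The call was lost with either RECA1-OE array left out.

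CML30 (AT2G15680, probe set 265494_at), whose protein is found in mitochondria, was the 1 tested gene that fell. Its log2 signal was 7.01 and 7.37 in RECA1-OE, against 8.28 and 7.88 in Col-0. Both RECA1-OE arrays were the lower ones. It was 1.85-fold lower in RECA1-OE, with a log2 change of -0.89 ± 0.23 (SE) and a limma adjusted p of 0.034. Like that of CML41, this call was lost under 5 of 10 alternatives. Among them were no filter on dim probe sets (adjusted p = 0.083 by limma) and a replicate block (adjusted p = 0.054 by limma). The others left out 1 array each.

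The 7 tested genes that did not pass had log2 changes between -0.28 and 0.79. AT3G03000 came nearest, with log2 signals of 8.14 and 7.92 in RECA1-OE, against 7.76 and 6.73 in Col-0. The Col-0 arrays lay far apart there, and the log2 change was 0.79 ± 0.33 (SE; adjusted p = 0.134 by limma). The log2 change was 1.30 with Col-0 replicate 1 left out, and 0.27 with Col-0 replicate 2 left out.

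CML23 (AT1G66400), a sensor that acts with TCH2 in nitric oxide accumulation and flowering time, had log2 signals of 7.36 and 7.15 in RECA1-OE, against 7.26 and 7.31 in Col-0. Both Col-0 arrays lay between the RECA1-OE arrays. Its log2 change was -0.031 ± 0.21 (SE), with a 95% interval between -0.52 and 0.45. AT1G12310 was measured at log2 signals of 11.38 and 11.22 in RECA1-OE, against 11.36 and 11.32 in Col-0, with a log2 change of -0.039 and a 95% interval between -0.37 and 0.29. For these genes the intervals exclude a change of 2-fold in either direction.

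AT1G62820 had log2 signals of 9.37 and 9.83 in RECA1-OE, against 9.03 and 9.70 in Col-0, where the arrays of each group lay further apart than the group means. Its log2 change was 0.23, with a 95% interval between -0.37 and 0.83. AT3G10190 had 7.49 and 7.86 in RECA1-OE, against 7.82 and 7.94 in Col-0, and AT4G26470, just above the limit, had 7.28 and 6.47 in RECA1-OE, against 6.88 and 7.26 in Col-0. Both groups overlapped in each, and the log2 change was -0.20 for either gene. AT1G73630 had log2 signals of 8.67 and 8.59 in RECA1-OE, against 8.81 and 9.00 in Col-0. Its groups did not overlap, and its log2 change of -0.28 ± 0.16 (SE) had a limma adjusted p of 0.259.

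**Figure D3:**
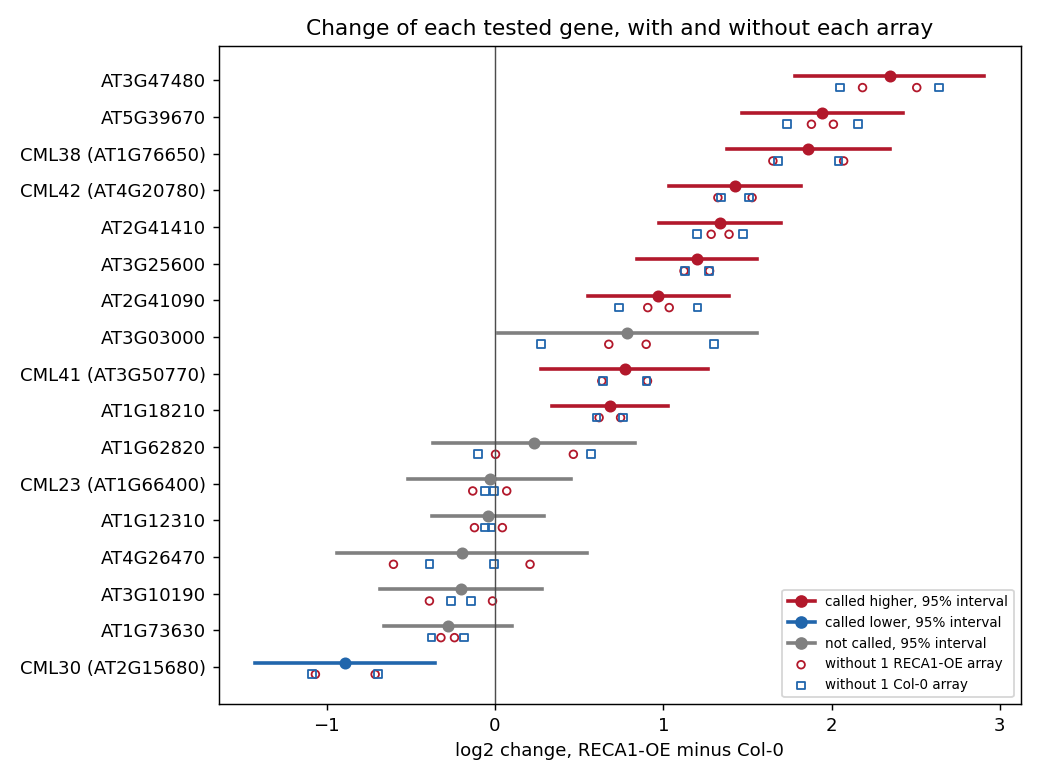
Log2 change, RECA1-OE minus Col-0 (horizontal axis), of the 17 tested calmodulin-like genes, as filled points with limma's 95% interval and, below each, as open symbols the change when 1 array is left out. AT3G47480, at 2.34, stays between 2.05 and 2.64, while AT3G03000, at 0.79, moves between 0.27 and 1.30.

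With 1 array left out, a group of a single array was set against the other pair. With a RECA1-OE array left out, the spread came from the Col-0 pair and the moderation across probe sets. With a Col-0 array left out, limma's prior degrees of freedom were infinite. The spread then came only from the trend across probe sets, not from each gene's own arrays. In either case the single array was assumed to vary like the other group. In those fits 6 of the 9 rises were called each time: AT3G47480, AT5G39670, CML38, CML42, AT2G41410 and AT3G25600. These 6 were the rises of at least 2-fold, and they were also called under every other alternative listed in the processing notes that tested them. AT2G41090 was no longer called with RECA1-OE replicate 1 left out, and AT1G18210 with either RECA1-OE array left out, where the limma adjusted p reached 0.068 and 0.119. Of the 9 rises, 6 stayed called with RECA1-OE replicate 1 left out, in a background of 3.55% of probe sets called higher. With RECA1-OE replicate 2 left out, 7 stayed, in a background of 4.79%. With Col-0 replicate 1 left out, 8 stayed and AT3G03000 was gained, in a background of 14.1%. With Col-0 replicate 2 left out all 9 stayed, in a background of 10.2%.

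Col-0 replicate 1 stood nearer to the RECA1-OE arrays than Col-0 replicate 2 did across the array, with Pearson's r of 0.918 and 0.924 against 0.882 and 0.884. Col-0 replicate 1 was the nearer array to the RECA1-OE mean in 10 of the 17 calmodulin-like genes, or 58.8%, close to the 61.4% of all tested probe sets. The median gap between arrays of a group was 0.20 in RECA1-OE and 0.27 in Col-0 for these genes (log2), against 0.18 and 0.19 for all tested probe sets.

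Below the limit, 14 genes had mean log2 signals between 0.29 and 6.73. In 12 of them both group means lay below the limit, and 10 had a mean under 5. Both RECA1-OE arrays stood above both Col-0 arrays in 3 of the 14, below them in 2, and overlapped in 9. Over the tested probe sets the groups did not overlap in 65.0%, with RECA1-OE higher in 29.9% and lower in 35.1%. That share was not computed for the probe sets left out, so the counts of dim genes are descriptions only. The 3 dim genes with higher RECA1-OE arrays were CML37, AT3G01830 and AT1G21550. AT3G01830 (probe set 258947_at) had log2 signals of 7.97 and 7.67 in RECA1-OE, against 4.86 and 4.44 in Col-0. Its RECA1-OE level reached that of tested probe sets, whereas its Col-0 level did not. When dim probe sets were kept it was 8.99-fold higher (adjusted p = 0.0099 by limma), a fold that is uncertain in size because the Col-0 signal is dim.

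AT1G21550 had log2 signals of 7.95 and 7.03 in RECA1-OE, against 6.06 and 5.89 in Col-0, and a mean of 6.73 just under the limit. When dim probe sets were kept it was 2.85-fold higher but did not pass (adjusted p = 0.067 by limma). The 2 with lower RECA1-OE arrays were AT3G24110, at 5.29 and 5.91 in RECA1-OE, against 6.36 and 6.05 in Col-0, and AT4G03290, at 1.08 and 1.20 in RECA1-OE, against 4.06 and 1.32 in Col-0. Neither was called when dim probe sets were kept. The other dim genes were CML39, CML43, AT1G18530, AT1G24620, AT1G32250, AT2G36180, AT3G03400, AT3G03410 and AT3G59440. In each of these the groups overlapped. With all 31 genes tested, limma called 10 higher and 0 lower, with 1 lower at an unadjusted p under 0.05, in a background of 4.55% and 3.31% of 22746 probe sets.

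**Figure D4:**
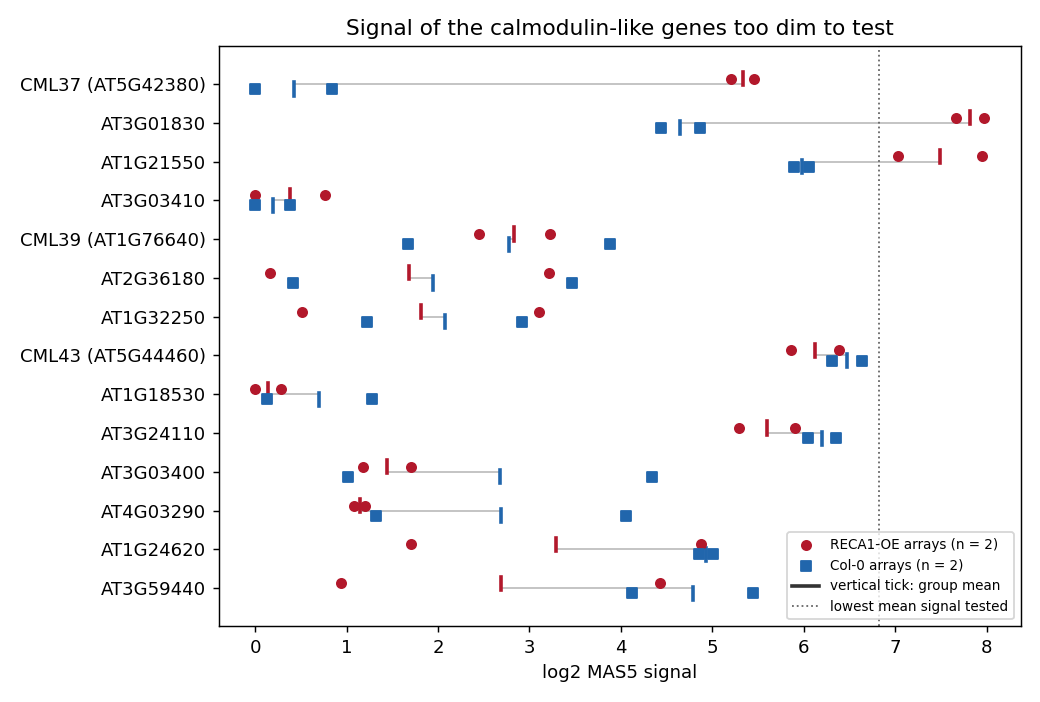
Log2 MAS5 signal (horizontal axis) of the 14 calmodulin-like genes left out of the main test, on each RECA1-OE array (red circles) and each Col-0 array (blue squares), with group means as vertical ticks and the limit near 6.82 as a dotted line. CML37, AT3G01830 and AT1G21550 have both red points to the right of both blue points.

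Genes neighbouring the 10 called genes were examined for change in the same direction. For CML30 both neighbours, AT2G15690 and AT2G15695, had higher locus numbers than CML30 itself. Besides CML39 and TCH3, there were 18 neighbouring protein-coding genes, of which 6 were paired and tested. By limma 1 of these rose, 0 fell and 5 did not pass, and at an unadjusted p under 0.05 there were likewise 1 higher and 0 lower. Over all tested probe sets 9.94% were called higher and 9.97% lower, and 4824 of 13647 had an unadjusted p under 0.05. With 6 genes the count cannot be told from those shares. The neighbours named here were chosen after their values were seen. The gene that rose was AT3G25610, next to AT3G25600, with a log2 change of 2.15 and a limma adjusted p of 0.0013. Next to CML38 AT1G76660 differed by 0.11, next to AT3G47480 AT3G47490 by -0.27, and next to CML41 AT3G50780 by -0.36.

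Few other genes of calcium signalling could be followed through the annotation used. It gave no gene for 8730 of the 22746 probe sets and several genes for 503. A locus without a pairing may therefore still have a probe set on the array. None of the listed calmodulins, CBL sensors, CIPK and CPK kinases, calcium pumps, CAX exchangers and CNGC channels was paired with a probe set of its own, so they are not analysed here. Of 15 genes of IQD proteins, scaffolds that bind calmodulin, 9 were tested. By limma 0 rose, 1 fell (11.1%) and 8 did not pass, while 3 had an unadjusted p under 0.05. Over all tested probe sets 9.94% were called higher and 9.97% lower, and 4824 of 13647 had an unadjusted p under 0.05, so the IQD counts were near those shares. IQD21 (AT3G49260) had log2 signals of 9.29 and 9.20 in RECA1-OE, against 10.03 and 9.81 in Col-0, a log2 change of -0.67 ± 0.16 (SE; adjusted p = 0.025 by limma). IQD22 (AT4G23060) differed by -0.63 ± 0.22 and IQD19 (AT4G14750) by -0.64 ± 0.24 (log2 change, SE), without passing. The median log2 change of the 9 was -0.29. The call of IQD21 was lost without either RECA1-OE array, where by limma 0 IQD genes fell.

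Of 8 genes of GLR channels, glutamate receptor-like proteins that let calcium into the cell, 3 were tested. None passed limma, while 2 had an unadjusted p under 0.05. For these counts and those below, the share called over all tested probe sets was 19.9%, and 4824 of 13647 had an unadjusted p under 0.05. GLR2.7 (AT2G29120) differed by 0.66 ± 0.22 (SE), GLR3.6 (AT3G51480) by -0.72 ± 0.23 and GLR3.3 (AT1G42540) by -0.37 ± 0.16 (log2 change). Of 6 loci listed as CAMTA transcription factors, which bind calmodulin, 3 were tested. None passed limma and 1, AT3G16940, had an unadjusted p under 0.05, with a log2 change of 0.52 ± 0.18 (SE). Of 8 loci listed in the calmodulin-binding CBP60 family, 2 were tested and by limma 1 rose. The locus that rose, AT5G57580, had log2 signals of 9.71 and 9.44 in RECA1-OE, against 8.98 and 8.54 in Col-0, a log2 change of 0.82 ± 0.20 (SE; adjusted p = 0.029 by limma). This call was lost with no filter on dim signal (adjusted p = 0.061 by limma), and also on leaving out RECA1-OE replicate 1 (adjusted p = 0.160) or 2 (adjusted p = 0.071). The other, AT2G18750, differed by 0.29 ± 0.15 (log2 change, SE) and did not pass.

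Markers of green tissue were bright on all 4 arrays. Of 8 listed, 5 were paired. By limma 1 of them, PRK, fell and 4 did not pass, and in RCA and PSAE-1 the groups overlapped. Their summed linear signal was 94591 and 81397 in RECA1-OE, against 98969 and 102504 in Col-0. Of 8 root markers 2 were paired, PYK10 and EXPA7, with sums of 9179 and 12979 in RECA1-OE, against 17985 and 11976 in Col-0. Nearly all of each sum was PYK10, at log2 signals between 13.15 and 14.13, with EXPA7 between 6.68 and 6.98. The groups overlapped in PYK10, which did not pass (adjusted p = 0.243 by limma), and EXPA7 was too dim to be tested. Of 5 markers of flowers and pollen 2 were paired, and their sums lay at 34 and 38 in RECA1-OE, against 22 and 54 in Col-0, far below the tested range. None of 4 listed markers of touch and wounding was paired with a probe set of its own. The part of green tissue, whose markers were lower in sum in RECA1-OE, in the changes of the calmodulin-like genes was not tested.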

How the data were processed

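The deposited values are log2 signals of single probe sets on single arrays. Per the submitters' processing notes they come from MAS5, without a version number. Each array was scaled by 1 factor, as read from the values: the linear mean after trimming was alike on the 4 arrays. No genome build is given. Values under a linear signal of 1 were set to 1, between 151 and 246 per array. The 9099 probe sets in the lowest 40% of mean log2 signal were left out. The number of arrays limits the precision.

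RECA1-OE was compared with Col-0 by limma 3.58.1 in R 4.3.3 (lmFit and trended eBayes, two-sided tests, Benjamini-Hochberg adjustment over 13647 probe sets). The fit has 2 residual degrees of freedom, to which moderation added 5.42. Group values are single arrays, SE are moderated. Gene names come from the platform annotation and RefSeq TAIR10.1 by Entrez ID. All 31 paired loci had 1 probe set, so averaging probe sets was not run. The fit was tested on simulated data. Sequences are not used here, and the sequence features planned for these genes were not computed.

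The genes and lists were chosen with earlier results of these data known. The IQD and GLR lists were added once the annotation was seen. Every calmodulin-like gene is named, and from other lists up to 4 by size of change among those called and then by smallest unadjusted p, by locus where the tables give no symbol. Alternatives were quantile normalization, median centring, no filter, the lowest 60% left out, 16 added before log2, a replicate block, no trend, leaving out each array, and an adjusted p threshold of 0.1.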

Additional observations from a re-analysis of the deposited data

How the results depend on the processing

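The 9 rises and 1 fall were counted alike after quantile normalization, median centring, with 16 added before log2, without the mean-variance trend and at an adjusted p under 0.1. At the 0.05 threshold, those settings called between 9.17% and 10.1% of all tested probe sets higher and between 8.51% and 10.1% lower. At an adjusted p under 0.1 these shares were 13.6% and 15.7%. With a replicate block the rises and falls were 8 and 0, in a background of 9.2% and 8.31%. The correlation of the difference between replicates 1 and 2 across the groups was -0.06, so the numbers were not taken as pairs. When dim probe sets were kept the rises and falls were 10 and 0, in a background of 4.55% and 3.31%. With the lowest 60% left out 6 of 9 genes tested rose and 0 fell, in a background of 11.2% and 11.9%. CML30 and the called rises AT3G47480, AT5G39670 and CML41 were not tested there. All 6 of the called rises still tested there stayed called. Without 1 array the rises ran between 6 and 9 and the falls between 0 and 1. The median log2 change was 0.97 over the 9 genes tested with the lowest 60% left out, and between 0.60 and 0.90 without 1 array. Each fit without 1 array had 1 residual degree of freedom, from the group that kept both arrays. With a Col-0 array left out limma's prior degrees of freedom were infinite, so the p-values there used the trend's spread in place of each probe set's own. With a RECA1-OE array left out the prior degrees of freedom were 5.17 and 5.18.

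The log2 change turned sign in 4 genes that were not called. Without 1 array it ran between -0.12 and 0.044 for AT1G12310, between -0.13 and 0.070 for CML23 (AT1G66400) and between -0.60 and 0.21 for AT4G26470, each positive without RECA1-OE replicate 2. It ran between -0.10 and 0.57 for AT1G62820, negative without Col-0 replicate 1. By limma the listed CBP60 rise was 0 when dim probe sets were kept and between 0 and 1 without 1 array. IQD falls were 2 at an adjusted p under 0.1 and between 0 and 1 without 1 array. GLR falls were 1 without the trend, where 8.51% of all tested probe sets were called lower. At an adjusted p under 0.1 GLR calls were 1 higher and 1 lower and CAMTA calls 1 higher. Over all tested probe sets 13.6% were called higher and 15.7% lower at that threshold, the background for the IQD falls as well. Without 1 array GLR and CAMTA rises ran between 0 and 1 each. The causes were not tested.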
